A study of Mus musculus with 56 samples.

Results

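The nuclear genes for the subunits of oxidative phosphorylation (OXPHOS) were taken from the liver RNA-seq values as the genes whose symbols begin with Nduf followed by a, b, c, s or v and a digit, with Uqcr, with Cox and a digit from 4 to 8, or with Atp5, together with Sdha, Sdhb, Sdhc and Sdhd. The name pattern matched 83 of 23813 named genes, and 75 of them had a mean of at least 1 RPKM (read numbers scaled to transcript length and to the aligned reads of the library) over the 12 libraries. By their known place in the respiratory chain, 35 of the 75 belong to complex I, 4 to complex II, 8 to complex III, 13 to complex IV and 14 to complex V, and 1, Atp5s, was matched by its name only and is a member by the rule but no structural subunit. Ndufa4, which carries a complex I name, was counted with complex IV, where its protein is found. The 8 matched genes under 1 RPKM were Cox8c, Cox7b2, Cox6a2, Cox4i2, Cox8b, Atp5g2, Cox6b2 and Ndufa4l2. The genes nearest the threshold were Cox7a1, just inside at a mean of 1.09 RPKM, and Ndufa4l2, just outside at 0.965 RPKM. Cox7a1 passed only through its values in the T3-treated livers, as given below.

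Complexes I to IV pass electrons from NADH and succinate to oxygen, and complexes I, III and IV pump protons across the inner mitochondrial membrane. Complex V, the ATP synthase, uses the return of the protons to make ATP. Each complex except complex II also holds subunits encoded by the mitochondrial genome, which the name pattern does not cover. Thyroid hormone is a classical stimulator of hepatic respiration, and the liver is a tissue rich in mitochondria.

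RNA-seq was done on livers of 3 groups of male mice with 4 mice each, the mice being independent biological replicates. All 3 groups, controls included, were made hypothyroid with a low-iodine diet containing propylthiouracil (PTU), which blocks hormone synthesis in the thyroid. WT PTU mice are wild type and hypothyroid, and WT PTU_T3 mice are wild type mice on the same diet that were injected with T3 over the last days, which makes them hyperthyroid. L-NCORdeltaID PTU mice are hypothyroid and express in the liver a form of the corepressor NCOR1 that lacks the domains through which it binds the thyroid hormone receptor. The mutant line is on a mixed C57BL/6;129S background, and by the study's averages over the mice of all its experiments, the mutant mice were younger than the mice of both wild type groups. The background and the age of the individual RNA-seq mice are not given in the sources used here. The question addressed was what T3, and what loss of NCOR1 binding to the receptor without T3, does to transcript levels. Both comparisons use the same 4 WT PTU libraries, so that their difference was tested directly as WT PTU_T3 against L-NCORdeltaID PTU.

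The labels were checked on known T3 targets. Dio1, which encodes the deiodinase of liver, ranged from 459 to 641 RPKM in the T3-treated livers and from 0.719 to 57.7 RPKM in WT PTU, where replicate 3 held the highest value and the other libraries at most 8.98 RPKM. Ncor1 was at 15.6, 14.3, 14.6 and 14.1 RPKM in WT PTU and at 13.4, 12.1, 12.4 and 13.9 RPKM in the mutant, and values summed over a transcript do not show the altered exons. The step between the lowest RPKM values gave an estimated depth of 21200000 to 42600000 reads per library, with the T3-treated livers the shallowest at 26000000 reads or fewer. WT PTU replicate 4 stood apart by skeletal muscle genes, as 6 of them (Ckm, Acta1, Myh4, Myh1, Tnnt3 and Mb) summed to 26.5 RPKM there, to 6.74 RPKM in L-NCORdeltaID PTU replicate 1 and to at most 0.602 RPKM in the other 10 libraries.

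In WT PTU livers the 74 subunit genes summed to 7580, 7769, 7866 and 7929 RPKM, or 1.94% ± 0.045 (SD, n = 4) of all RPKM. In the T3-treated livers they summed to 9704, 8974, 9860 and 10780 RPKM, or 2.55% ± 0.16, and in the mutant livers to 7933, 8489, 8492 and 7554 RPKM, or 2.07% ± 0.10. Each T3-treated library lay above each library of both other groups, whereas WT PTU and mutant libraries overlapped. The mean sum was 26.3% higher with T3 and 4.25% higher in the mutant than in WT PTU. By complex, the summed level with T3 was 23.2% higher for complex I, 4.94% for complex II, 28.5% for complex III, 29.2% for complex IV and 31.9% for complex V. Complex II was the only one of the 5 in which T3-treated libraries (609.8 to 700.4 RPKM) overlapped WT PTU libraries (610.3 to 634.8 RPKM). In bulk tissue, fewer cells of a type and less RNA per cell cannot be told apart.

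**Figure D1:**
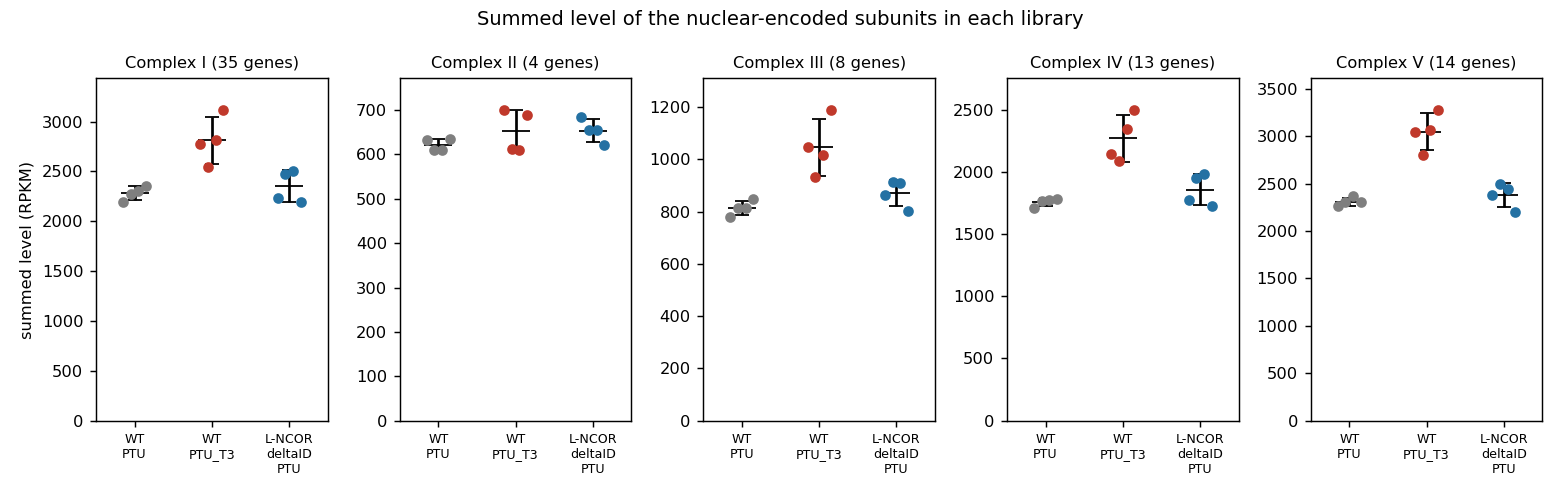
Summed RPKM (linear axis from 0) of the kept subunit genes of each complex in every library, with points for single livers and bars for the mean ± SD of 4 livers. The T3-treated libraries sit above both other groups in complexes I, III, IV and V and overlap WT PTU in complex II.

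The levels of single members spanned a wide range. Over the 12 libraries the median member was at 89.5 RPKM, and 64 of the 75 were at 30 RPKM or more. Atp5b, the catalytic beta subunit of ATP synthase, was the most abundant at 642 RPKM, and Cox7a1, a form of subunit 7a typical of heart and muscle, the least. The most abundant of complex I was Ndufb9 at 201 RPKM, of complex II Sdhb at 189 RPKM, of complex III Uqcrc1 at 144 RPKM and of complex IV Cox4i1 at 377 RPKM. Levels of complex II were the most even, from 134 RPKM for Sdhd to 189 RPKM for Sdhb. Among the lowest in complexes I and V were Ndufb4 at 5.15 RPKM and Atp5l at 8.90 RPKM. Stretches of at least 98% identity to other places in the genome covered 49.8% of the Ndufb4 transcript and 92.6% of the Atp5l transcript, and whether such copies took up reads was not tested.

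T3 raised 35 of the 75 members and lowered none at an adjusted p under 0.01 (limma, Benjamini-Hochberg over 13941 genes). The share of members called higher was 46.7%, and of all genes tested 24.5% were called higher and 7.71% lower. At an unadjusted p under 0.05, 56 members were higher and none lower, beside 42.9% of all genes higher and 13.6% lower. None of the 35 exceeded a log2 fold change of 1, whereas 8.28% of all genes passed the test with a larger rise than that. In 51 of the 75 members every T3-treated library lay above every WT PTU library, which was so for 35.8% of all genes. The median log2 fold change of the members was 0.31, with quartiles of 0.20 and 0.43, and 71 of the 75 were above 0.

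These values stand on a scale on which the typical gene also moved. Over all genes tested the median change was 0.23 on the log2 scale, and relative to it the median member was 0.08 higher. Of the 75 members, 52 (69.3%) lay above the median gene. When libraries were scaled by the median of gene ratios, which sets the typical gene to no change, 8 members (10.7%) were called higher and 1 (1.33%) lower, beside 12% and 14.1% of all genes. On that scale the share of members called higher was near that of all genes. The 8 were Ndufa1, Ndufa5, Ndufa8, Ndufc1, Cox5a, Atp5g1, Atp5k and Atp5e, and the 1 called lower was Sdha. The 1706 genes of at least 30 RPKM had a lower median log2 fold change, 0.10, and a wider spread (quartiles of -0.31 and 0.43, against -0.08 and 0.54 for all genes), with 27.7% called higher and 20.5% lower on the deposited scale. Centred on the abundant genes, 18 members were called higher and none lower. The share of all genes called on that scale is not given here, so that this count is not read as a trait of the members.

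**Figure D2:**
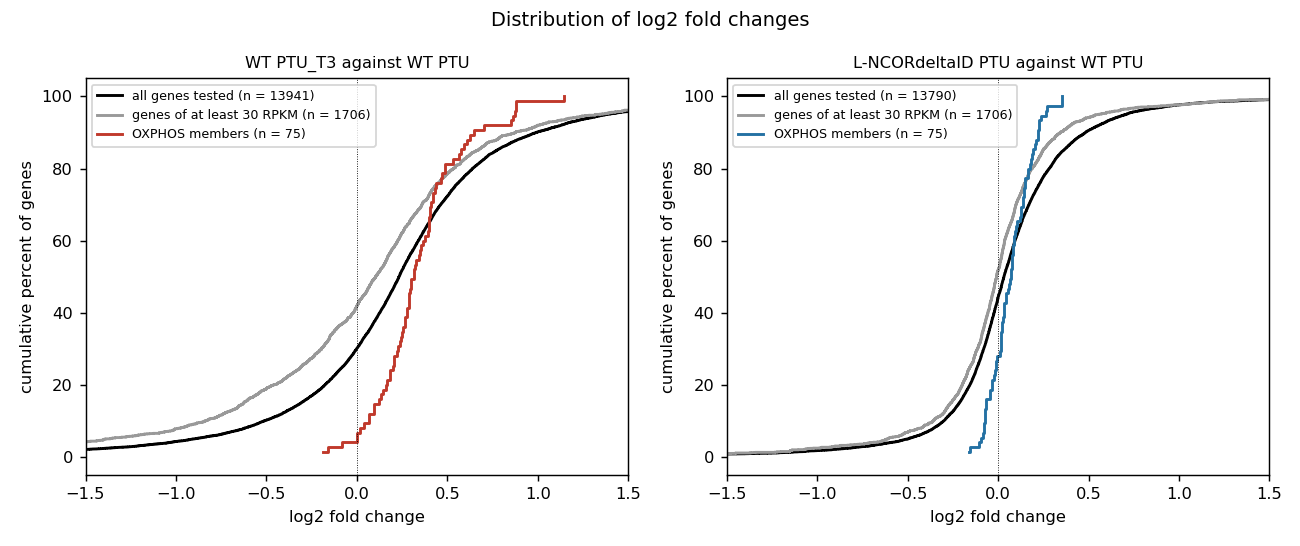
Cumulative percent of genes against the log2 fold change, for WT PTU_T3 (left) and L-NCORdeltaID PTU (right) against WT PTU, with all genes tested in black, genes of at least 30 RPKM in grey and the 75 members in colour, on an axis limited to changes between -1.5 and 1.5. With T3 the members lie to the right of all genes at the lower quartile (0.20 beside -0.08) and to the left of them at the upper quartile (0.43 beside 0.54), and in the mutant the members rise steeply around a median of 0.07.

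Without 1 library the number of members called higher with T3 was between 20 (without WT PTU replicate 1) and 37 (without WT PTU_T3 replicate 2), and the number called lower stayed at 0. It was 26 without WT PTU replicate 3, the library with the highest Dio1 of its group, 23 without WT PTU replicate 4, which held the muscle transcripts, and 22 without WT PTU replicate 2. Calls over all genes tested fell as well. Between 2438 and 2978 were higher and between 746 and 994 lower without 1 library, beside 3413 and 1075 with all libraries. There were 20 members called in all 8 of these fits, among them Cox5a, Atp5g1, Ndufa1, Ndufa5, Ndufa8, Ndufc1, Ndufv1, Ndufv2, Uqcrfs1, Atp5a1 and Atp5b.

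In complex I, the entry point for electrons from NADH, T3 raised 16 of 35 subunits and the median log2 fold change was 0.29. The 7 core subunits kept here carry the redox centres, and 5 of them were called higher, against 11 of the 28 accessory subunits, with medians of 0.30 and 0.29. In the NADH-oxidising part, Ndufv1, which binds the flavin cofactor, was at 82.2, 90.1, 95.3 and 81.9 RPKM in WT PTU and at 113, 108, 123 and 125 RPKM with T3 (log2 fold change 0.42 ± 0.08 SE, adjusted p = 0.0025). The groups did not overlap. Ndufs1, the largest iron-sulfur subunit of the same part, had a log2 fold change of 0.30 (adjusted p = 0.0049). Both were above the median gene on the deposited scale and were not called when libraries were scaled by gene ratios.

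The largest rises in complex I were in small accessory subunits. Ndufa1, encoded on the X chromosome and needed for assembly of the membrane arm, was at 38.3, 40.3, 45.7 and 42.9 RPKM in WT PTU, at 71.8, 70.8, 78.7 and 85.3 RPKM with T3, and at 37.8, 45.1, 50.2 and 38.7 RPKM in the mutant. The T3-treated livers stood clear of both other groups, which overlapped, and the log2 fold change with T3 was 0.87 ± 0.08 SE (1.83-fold, adjusted p = 7.2e-05). Ndufa5 went from 45.3, 42.7, 48.9 and 48.3 RPKM to 82.5, 71.7, 81.8 and 104 RPKM (log2 fold change 0.86 ± 0.11 SE, adjusted p = 0.0003). Ndufa8, a protein with twin cysteine motifs, went from 70.6, 86.2, 82.4 and 74.9 RPKM to 139, 120, 124 and 127 RPKM (log2 fold change 0.70 ± 0.08 SE, adjusted p = 0.00021), again without overlap. Ndufc1 had a log2 fold change of 0.85 (adjusted p = 0.00047). The changes of these 4 were also called on the gene-ratio scale, at 0.64, 0.63, 0.46 and 0.62; Ndufa8 and Ndufc1 are named here after their values were seen.

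At the other end, Ndufa7 was at 81.6, 72.6, 68.7 and 90.5 RPKM in WT PTU and at 65.9, 61.2, 67.7 and 80.3 RPKM with T3, overlapping groups with a log2 fold change of -0.19 (adjusted p = 0.19). Ndufa6, an accessory subunit of the LYR family, had a log2 fold change of -0.16 (adjusted p = 0.28). Neither passed the test on the gene-ratio scale, where they stood at -0.42 (adjusted p = 0.016) and -0.40 (adjusted p = 0.021). The members of complex I thus spanned log2 fold changes from -0.19 to 0.87.

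Complex II, succinate dehydrogenase, is encoded wholly in the nucleus and also works in the citric acid cycle. Only Sdhd, 1 of its membrane anchors, was called higher, from 124, 128, 126 and 123 RPKM to 159, 151, 144 and 162 RPKM (log2 fold change 0.29 ± 0.06 SE, adjusted p = 0.0047). Sdha, the flavoprotein that oxidises succinate, was at 193, 175, 180 and 180 RPKM in WT PTU and at 177, 163, 169 and 178 RPKM with T3, with a log2 fold change of -0.08 ± 0.07 SE (adjusted p = 0.32). Its groups overlapped, and on the gene-ratio scale Sdha was called lower, at -0.32 (adjusted p = 0.0093). Sdhb, the iron-sulfur subunit, had a log2 fold change of 0.02 that turned to -0.22 on the gene-ratio scale, and Sdhc one of 0.10 that turned to -0.14, none of them past the test. The median of complex II was 0.06 on the deposited scale, or -0.18 relative to the median gene, whereas the medians of the other 4 complexes were between 0.06 and 0.18 above the median gene. A difference between complexes was not tested.

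In complex III, which passes electrons from coenzyme Q to cytochrome c, 4 of 8 members rose and the median log2 fold change was 0.32. Uqcrh, the acidic hinge protein that docks cytochrome c, went from 101, 112, 115 and 123 RPKM to 162, 155, 167 and 207 RPKM (log2 fold change 0.61 ± 0.10 SE, adjusted p = 0.0015). Uqcrb had a log2 fold change of 0.58 (adjusted p = 0.0023), although copies of at least 98% identity covered 90.5% of its transcript. Uqcrfs1, the Rieske iron-sulfur protein at the catalytic centre, went from 111, 119, 124 and 121 RPKM to 163, 144, 150 and 160 RPKM (log2 fold change 0.38 ± 0.07 SE, adjusted p = 0.0022). The T3-treated libraries lay above WT PTU in all 3. The smallest changes were those of the core protein Uqcrc2, with a log2 fold change of 0.20 (adjusted p = 0.026), and of Uqcrq, with 0.09 (adjusted p = 0.47), and both fell below 0 on the gene-ratio scale, at -0.03 and -0.14. No member of complex III was called on the gene-ratio scale.

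Complex IV, cytochrome c oxidase, had the highest median log2 fold change of the 5 complexes, 0.41, and 7 of its 13 members rose. In 12 of the 13 the change was above that of the median gene, the exception being Ndufa4. Cox5a, a matrix-side subunit that binds the thyroid hormone metabolite T2, was at 90.7, 116, 117 and 99.2 RPKM in WT PTU, at 203, 160, 190 and 228 RPKM with T3, and at 102, 115, 118 and 109 RPKM in the mutant. The lowest T3-treated liver was above the highest of the other groups, and the log2 fold change was 0.88 ± 0.13 SE (1.84-fold, adjusted p = 0.00056), or 0.64 on the gene-ratio scale, where Cox5a was the only called member of complex IV. Cox4i1, the general form of the subunit through which ATP inhibits the enzyme, went from 346, 353, 343 and 358 RPKM to 386, 434, 463 and 463 RPKM. Its groups did not overlap, but its log2 fold change of 0.31 ± 0.08 SE had an adjusted p of 0.013. Ndufa4 had the smallest change, a log2 fold change of 0.07 on the deposited scale and -0.17 on the gene-ratio scale (adjusted p = 0.60 and 0.21).

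In complex V, T3 raised 7 of 14 members and the median log2 fold change was 0.38. The catalytic head rose, Atp5b from 563, 559, 589 and 557 RPKM to 771, 718, 792 and 795 RPKM (log2 fold change 0.44 ± 0.08 SE, adjusted p = 0.0023), and Atp5a1 from 390, 409, 417 and 377 RPKM to 579, 526, 546 and 582 RPKM (log2 fold change 0.49 ± 0.08 SE, adjusted p = 0.0012). Neither pair of groups overlapped, and neither gene was called on the gene-ratio scale, at 0.20 and 0.25. Atp5k, the membrane subunit e that takes part in dimer formation, went from 61.0, 59.7, 54.3 and 51.5 RPKM to 90.6, 79.1, 103 and 83.4 RPKM (log2 fold change 0.65 ± 0.10 SE, adjusted p = 0.00069) and was called on both scales. The smallest changes were those of Atp5h of the peripheral stalk, with a log2 fold change of 0.13 that turned to -0.10 on the gene-ratio scale, and of Atp5g3, described next.

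**Figure D3:**
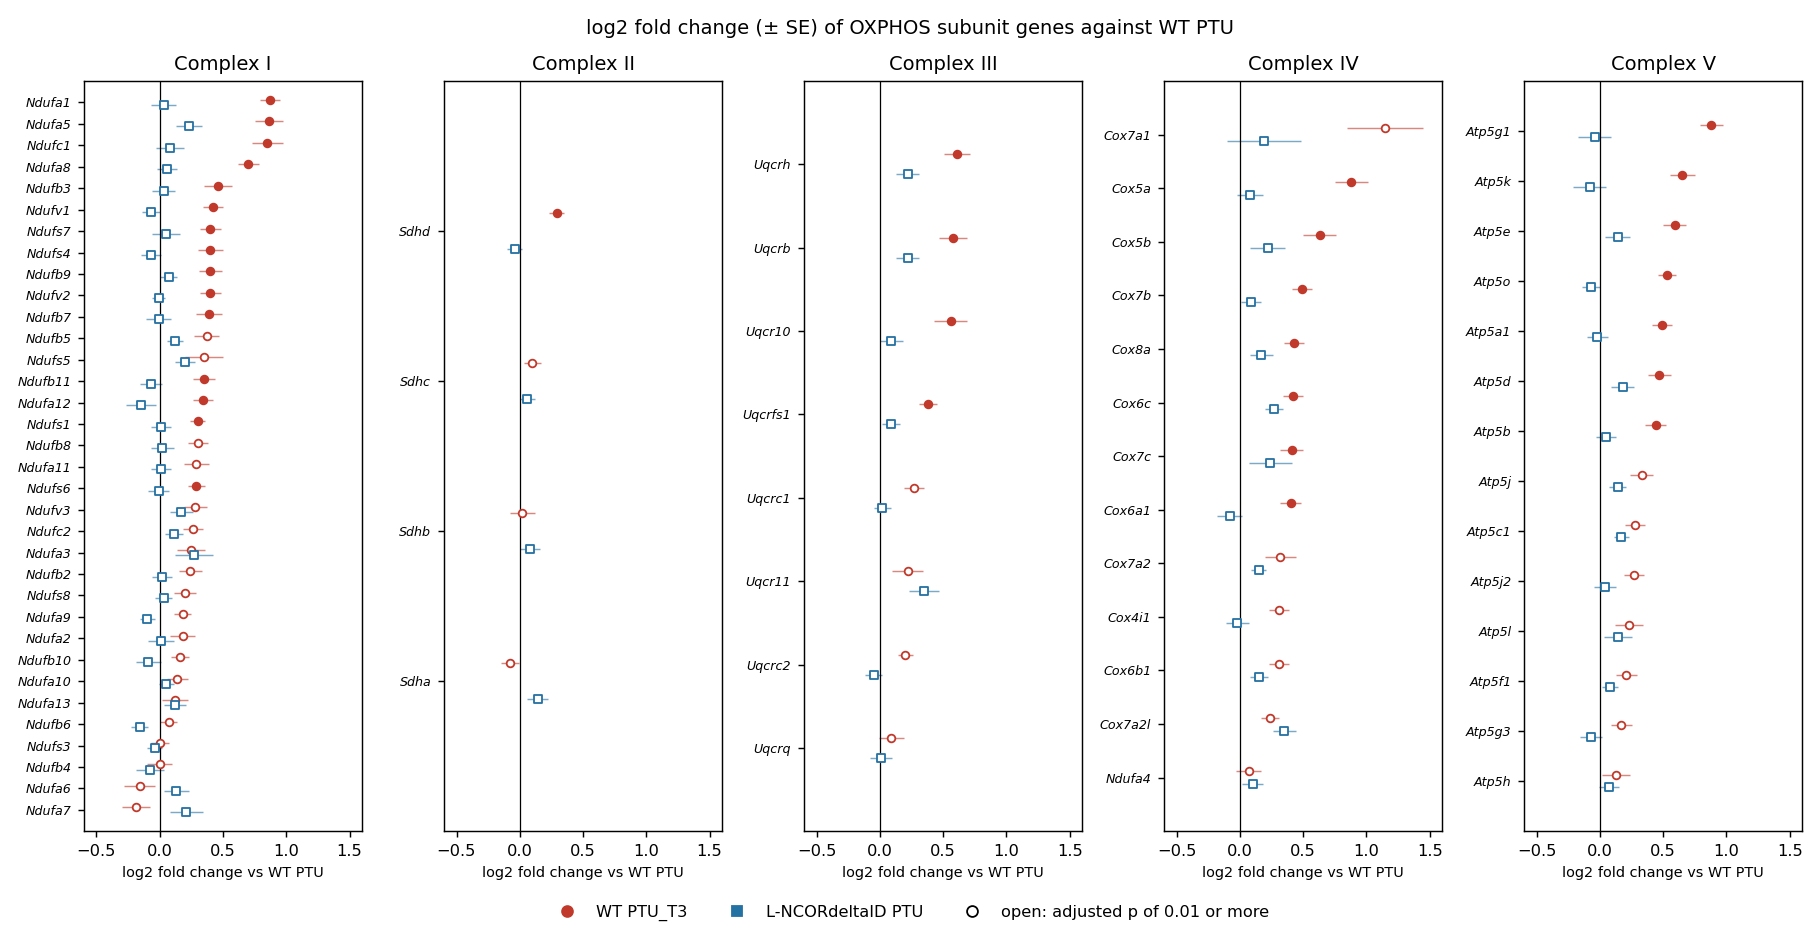
log2 fold change ± SE against WT PTU of 73 of the 74 subunit genes by complex, with red circles for WT PTU_T3 and blue squares for L-NCORdeltaID PTU, filled where the adjusted p was under 0.01. With T3 34 symbols are filled and all lie above 0, and in the mutant none is filled.

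The c-ring of ATP synthase, which turns as protons pass, is built from a single mature protein that 3 genes encode with different import sequences, and these 3 differed in level and in response. Atp5g3, the most abundant of the 3 transcripts, was at 377, 372, 375 and 369 RPKM in WT PTU and at 417, 375, 426 and 461 RPKM with T3, groups that overlapped at their edge, with a log2 fold change of 0.17 ± 0.08 SE (adjusted p = 0.13) that turned to -0.07 on the gene-ratio scale. Atp5g1 was at 12.7, 15, 14.3 and 16 RPKM in WT PTU, at 25.5, 24.4, 28.2 and 28.7 RPKM with T3, and at 12.3, 17.3, 14.9 and 12.3 RPKM in the mutant. Its T3-treated libraries stood apart from both other groups, with a log2 fold change of 0.88 ± 0.09 SE (1.84-fold, adjusted p = 9.7e-05), or 0.64 on the gene-ratio scale (adjusted p = 0.00033). Copies of at least 98% identity at 38 other places covered 27.9% of the annotated Atp5g1 transcript that was searched. That transcript is 4715 bases long, and the part of these copies in the Atp5g1 level was not tested. Atp5g2 was under the 1 RPKM threshold, between 0.1 and 0.45 RPKM in all 12 libraries, which is about 2 to 11 reads. Copies of at least 98% identity at 3 other places covered 100% of the Atp5g2 transcript searched. Whether they took up its reads and so lowered its listed level was not tested.

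The 250 bases before the start of these c-ring genes, and of a pair of members that share a motif but differed in response, are shown to set the responses beside the sequence (RefSeq, build GRCm38.p6). Atp5g1 lies on the minus strand with its window at chr11:96075632-96075881, Atp5g3 on the minus strand at chr2:73911327-73911576, Atp5k on the minus strand at chr5:108434400-108434649 and Sdhb on the plus strand at chr4:140961021-140961270. Capitals mark the site of the estrogen-related receptors (TCAAGGTCA, on either strand) and the core of the nuclear respiratory factor NRF1 (GCGCATGC, on either strand).
Atp5g1: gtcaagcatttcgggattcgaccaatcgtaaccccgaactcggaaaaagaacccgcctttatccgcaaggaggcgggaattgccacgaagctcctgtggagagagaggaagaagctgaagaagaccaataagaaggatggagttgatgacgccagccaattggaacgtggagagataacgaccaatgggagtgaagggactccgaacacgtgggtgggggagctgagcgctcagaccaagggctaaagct
Atp5g3: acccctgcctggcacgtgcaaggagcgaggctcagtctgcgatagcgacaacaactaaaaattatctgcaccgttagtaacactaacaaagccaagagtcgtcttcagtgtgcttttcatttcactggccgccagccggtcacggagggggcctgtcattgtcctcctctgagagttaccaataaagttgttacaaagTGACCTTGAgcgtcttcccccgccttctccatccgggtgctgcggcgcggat
Atp5k: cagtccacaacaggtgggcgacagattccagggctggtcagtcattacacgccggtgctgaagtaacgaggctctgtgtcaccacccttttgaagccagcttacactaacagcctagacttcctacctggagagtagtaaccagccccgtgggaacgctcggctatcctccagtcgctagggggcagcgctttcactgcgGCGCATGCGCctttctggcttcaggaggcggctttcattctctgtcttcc
Sdhb: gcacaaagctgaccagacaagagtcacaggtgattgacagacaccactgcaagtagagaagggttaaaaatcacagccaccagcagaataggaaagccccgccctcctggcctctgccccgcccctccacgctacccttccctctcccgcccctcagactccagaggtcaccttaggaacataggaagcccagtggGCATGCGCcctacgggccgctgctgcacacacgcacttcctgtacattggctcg
The window of Atp5g1 held neither motif, and that of Atp5g3 held the estrogen-related receptor site. The windows of Atp5k, called higher with T3, and of Sdhb, not called, both held the NRF1 core.

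Promoters of 62 of the 75 members were found in the RefSeq set, each from 250 bases before to 50 after the start. As most members are abundant, shares are given beside those of all 27025 promoters and of the 1357 promoters of genes of at least 30 RPKM. The NRF1 core stood in 14.5% of the members, in 2.80% of all promoters and in 5.08% of those of abundant genes. The core of the ETS family (CCGGAAG), to which the respiratory factor GABP belongs, stood in 24.2%, 9.12% and 15.4%, and the core of YY1 (AAGATGGC) in 12.9%, 2.88% and 3.76%. The estrogen-related receptor site was found in 2 members, Sdhd and Atp5g3 (3.23%, beside 0.407% of all promoters and 0.442% of those of abundant genes). The half-site AGGTCA of the thyroid hormone receptor and other nuclear receptors, which is part of the estrogen-related receptor site, was in 24.2% of members, 16% of all promoters and 16.8% of those of abundant genes. A pair of these half-sites spaced by 4 bases, the usual element of the receptor, was in no member, in 0.0111% of all promoters and in no promoter of an abundant gene. Among the 29 members with a promoter that T3 raised, 3 held the NRF1 core, 7 the ETS core and 4 the YY1 core. Among the 33 others the counts were 6, 8 and 4. All motifs were searched on both strands.

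All 75 members had a region of acetylated histone H3 within 1000 bases of their start, in the regions called from H3K27Ac and H3K9Ac in WT PTU and WT PTU_T3 livers (build mm9). This was so for 58.2% of all 20074 genes with a position and for 97.0% of those of at least 30 RPKM, so that the share of members was close to that of abundant genes. The regions at members had a median length of 4204 bases. Those at all genes with a position had one of 3782 bases, at genes of at least 1 RPKM one of 4344 bases and at abundant genes one of 8400 bases. The region file holds coordinates only and gives no acetylation level per group.

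Several subunits of complex IV exist in general and in tissue-restricted forms, and these livers held almost only the general ones. Cox6a1, the liver form, had a mean of 311 RPKM in WT PTU and rose with T3 to 411 RPKM (log2 fold change 0.40 ± 0.08 SE, adjusted p = 0.0028), and Cox8a rose from 168 to 226 RPKM (log2 fold change 0.43 ± 0.08 SE, adjusted p = 0.0021). Their heart and muscle counterparts were near 0. Cox6a2 was listed at 0 in 8 of the 12 libraries and reached its highest value, 0.438 RPKM, in WT PTU replicate 4, where Cox8b was also at its highest (0.653 RPKM). That library also held the 26.5 RPKM of muscle transcripts given above, and the part of these in both values was not tested. Cox4i2, a form typical of lung, was at most 0.310 RPKM, and Cox8c and Cox7b2 were at 0 throughout. Cox6b2, a form typical of testis, was the only matched gene under 1 RPKM in complex IV that passed the test, from 0.058, 0.117, 0 and 0.048 RPKM in WT PTU to 0.145, 0.435, 0.684 and 1.12 RPKM with T3 (log2 fold change 1.99 ± 0.46 SE, adjusted p = 0.0067, and 0.014 with libraries scaled by gene ratios). These values rest on at most an estimated 16 reads per library. Testing required 0.1 RPKM in 4 libraries. In WT PTU only replicate 2 reached it, and Cox6b2 was tested only because its T3-treated libraries did. Its call is therefore no independent support for a rise.

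Subunit 7a has 3 related genes. Cox7a1 was at 0.885, 0.892, 0.380 and 0.724 RPKM in WT PTU and at 2.09, 1.21, 1.17 and 2.44 RPKM with T3. The groups did not overlap, but at these levels, about 4 to 23 reads, the log2 fold change of 1.15 ± 0.30 SE did not pass the test (adjusted p = 0.012). Its group means were 0.72 RPKM in WT PTU, 1.73 RPKM with T3 and 0.83 RPKM in the mutant. Only the mean with T3 exceeded 1 RPKM, so that Cox7a1 is a member only through its T3 values. Its place in the member counts with T3 is therefore no independent support for a rise. Cox7a2, the liver form, had a log2 fold change of 0.32 (adjusted p = 0.054), and Cox7a2l, a factor that joins complexes III and IV into supercomplexes, one of 0.24 (adjusted p = 0.014), or 0.09 and 0.01 on the gene-ratio scale. Ndufa4l2, a relative of Ndufa4 known as a hypoxia target, was between 0.622 and 0.999 RPKM with T3 and between 0.772 and 1.29 RPKM in WT PTU, and the groups overlapped.

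**Figure D4:**
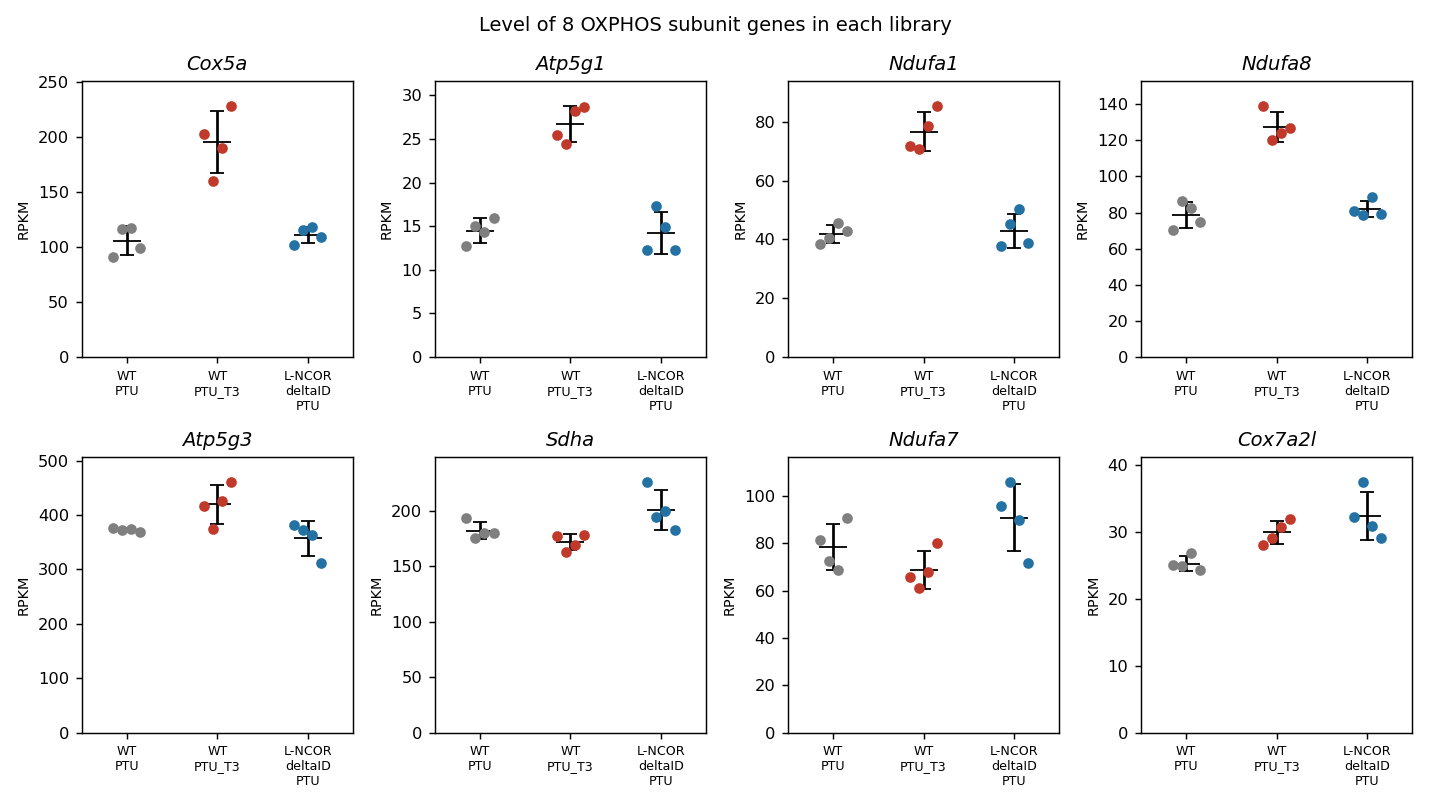
RPKM (linear axes from 0) of 8 members in each of the 12 livers, with points for livers and bars for the mean ± SD of 4. The T3-treated livers stand apart from both other groups for Cox5a, Atp5g1, Ndufa1 and Ndufa8, and overlap WT PTU for Atp5g3, Sdha and Ndufa7.

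The members also varied together between livers of 1 group. Among the T3-treated livers, replicate 4 held the highest value for 63 of the 75 members and replicate 2 the lowest for 59, whereas replicate 4 was the highest for 20.8% and replicate 2 the lowest for 36.0% of genes of at least 1 RPKM. The median member was 0.16 above the group mean on the log2 scale in replicate 4 and 0.13 below it in replicate 2. Genes of at least 1 RPKM with transcripts under 1 kb were displaced the same way, by 0.10 and -0.11 at the median. In the mutant group, replicate 4 was the lowest for 39 members (52%, beside 30.8% of genes of at least 1 RPKM) and replicate 2 the highest for 30 (40%, beside 30.5%). In WT PTU, replicate 4 was the highest for 36 (48%, beside 22.5%) and replicate 1 the lowest for 35 (46.7%, beside 32.2%). Of the members, 43 have a transcript under 1 kb, and their median log2 fold change with T3 was 0.35, against 0.28 for the 32 longer ones. All 205 abundant genes with transcripts that short had a median of 0.18.

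In the hypothyroid mutant livers no member was called in either direction, beside 0.725% of all 13790 genes called higher and 0.544% called lower (limma). At an unadjusted p under 0.05, 10 members were higher and none lower, beside 12.8% of all genes higher and 7.77% lower. The median log2 fold change of the members was 0.07, and that of all genes was 0.03. In 6 of the 75 every mutant library lay above every WT PTU library, or 8%, which was so for 7.78% of all genes. The medians of complexes I, II, III, IV and V were 0.03, 0.07, 0.09, 0.15 and 0.06.

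The 3 highest changes in the mutant were those of Cox7a2l, Uqcr11 and Cox6c. Cox7a2l was at 25.1, 24.9, 26.8 and 24.3 RPKM in WT PTU and at 32.2, 37.5, 30.9 and 29.1 RPKM in the mutant, without overlap (log2 fold change 0.35 ± 0.09 SE, adjusted p = 0.054). Close copies covered 99.4% of its transcript. Cox6c, a small subunit of complex IV, was at 112, 114, 114 and 123 RPKM in WT PTU and at 144, 142, 145 and 128 RPKM in the mutant, also without overlap (log2 fold change 0.27 ± 0.07 SE, adjusted p = 0.066). Uqcr11 of complex III was at 64.6, 67.4, 64.3 and 76.0 RPKM and at 85.4, 94.0, 102 and 69.4 RPKM, where replicate 4 of the mutant fell within the WT PTU range (log2 fold change 0.35 ± 0.12 SE, adjusted p = 0.14). Close copies covered 85.4% of the Uqcr11 transcript. The 3 lowest changes were those of Ndufb6, Ndufa12 and Ndufa9, with log2 fold changes of -0.16, -0.15 and -0.10 and adjusted p of 0.26, 0.50 and 0.37. Close copies covered 44.3% of the Ndufa12 transcript. All 6 changes are values that did not pass the test.

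Set directly against the mutant, the T3-treated livers had 15 members higher and none lower among the 75, a share of 20%, beside 15.5% and 5.70% of all 14017 genes tested. All 15 were also called higher against WT PTU. They included Cox5a, with a log2 fold change of 0.80 ± 0.12 SE (adjusted p = 0.0011), Atp5g1, with 0.91 ± 0.12 SE (adjusted p = 0.00066), and Ndufa1, with 0.84 ± 0.11 SE (adjusted p = 0.00064). The changes in the mutant against WT PTU for the same genes were 0.08, -0.04 and 0.03. For Cox7a2l, Uqcr11 and Cox6c, the 3 highest in the mutant, the log2 difference between T3-treated and mutant livers was -0.11, -0.13 and 0.15 and did not pass the test (adjusted p = 0.37, 0.52 and 0.25). The count fell to 7 without WT PTU_T3 replicate 1 or replicate 3 and to 8 or 9 without WT PTU_T3 replicate 4 or any 1 of the mutant libraries. With the libraries scaled by gene ratios, 5 members were higher and 1, Ndufa7, was lower at a log2 fold change of -0.59 (adjusted p = 0.0079). On that scale the shares of members were 6.67% and 1.33%, and those of all genes 7.41% and 9.40%.

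Genes that work beside the subunits were read from lists of the same pathway. Of 46 assembly factors, T3 raised 8 (17.4%) and lowered 1 (2.17%), beside 24.5% and 7.71% of all genes tested. Their median log2 fold change was 0.18, under that of the median gene. On the gene-ratio scale 3 were called higher and 5 lower (6.52% and 10.9%), beside 12% and 14.1% of all genes. The largest changes were those of Cox10, which makes the heme of cytochrome oxidase (1.15, adjusted p = 0.00032), and of Cox19, a copper chaperone factor (-0.87, adjusted p = 0.00015). Cyc1, the cytochrome c1 of complex III that the name pattern does not match, rose from a mean of 146 to 216 RPKM (log2 fold change 0.57 ± 0.09 SE, adjusted p = 0.00081). Like the members of complex III, Cyc1 was not called on the gene-ratio scale. Cycs, the cytochrome c gene, had a mean of 0.735 RPKM in WT PTU and of 1.33 RPKM with T3 (adjusted p = 0.017). Close copies were searched for the genes of the name pattern only. Whether copies of Cycs took up its reads and so lowered its listed level was not tested.

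Electrons also reach coenzyme Q by routes other than complexes I and II, and here 3 genes (Gpd2, Chdh and Prodh) moved further than any called subunit. Of 9 such genes, T3 raised 3 and lowered 3 (33.3% each), beside 24.5% and 7.71% of all genes tested. On the gene-ratio scale 2 were called higher and 3 lower. Gpd2, the mitochondrial glycerol-3-phosphate dehydrogenase and a classical thyroid hormone target, rose from 4.25 ± 2.14 to 33.4 ± 3.57 RPKM (SD, n = 4), a log2 fold change of 3.07 (adjusted p = 7.7e-05), and Chdh, choline dehydrogenase, fell from 46.2 to 16 RPKM (log2 fold change -1.54, adjusted p = 4.4e-05). Of 12 genes of coenzyme Q synthesis, 3 rose and 2 fell (25% and 16.7%), or 1 and 2 on the gene-ratio scale. The largest change was that of Coq10a, from 4.22 to 18.5 RPKM (log2 fold change 2.13, adjusted p = 2.1e-05). Of 12 regulators of mitochondrial transcription and biogenesis 6 (50%) rose and none fell. On the gene-ratio scale 1 of the 12 was called higher and 1 lower (8.33% each), beside 12% and 14.1% of all genes. Among the 3 related coactivator genes of that list, Pprc1 rose with a log2 fold change of 0.96 (adjusted p = 0.0071), and Ppargc1b at 1.14 (adjusted p = 0.017) and Ppargc1a at -0.91 (adjusted p = 0.016) had values of opposite sign that did not pass the test. Nrf1, a transcription factor of respiratory genes, rose by 0.68 (adjusted p = 0.00046). Of 5 tested uncoupling proteins and carriers, 3 (60%) rose and 1 (20%) fell, with Ucp2 from 9.04 to 27.4 RPKM and the carrier Slc25a13 from 109 to 57.0 RPKM. On the gene-ratio scale 1 of the 5 was called higher and 1 lower. In the mutant no gene of these lists was called at an adjusted p under 0.01.

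Markers of the cell types of the liver moved with T3 as well. The 7 hepatocyte markers summed to between 37700 and 49200 RPKM in WT PTU, to between 19100 and 27800 RPKM with T3 and to between 31700 and 35400 RPKM in the mutant, with 1 marker called higher and 2 lower with T3. Alb alone went from between 27400 and 37300 RPKM to between 11600 and 17500 RPKM. All 7 Kupffer cell or macrophage markers rose with T3, with sums of 43.6 to 62.3 RPKM in WT PTU, 138 to 227 RPKM with T3 and 48.3 to 132 RPKM in the mutant. Summed levels of the other lists were 52.0 to 74.2 and 89.2 to 104 RPKM for stellate cells, 52.7 to 76.3 and 73.9 to 85.6 RPKM for endothelial cells, 12 to 16.1 and 10.4 to 19.2 RPKM for cholangiocytes, 1.01 to 3.22 and 1.87 to 4.24 RPKM for lymphocytes, 0.159 to 0.734 and 1.57 to 16.2 RPKM for neutrophils, and 209 to 341 and 312 to 474 RPKM for erythroid cells, in WT PTU and with T3. Within the erythroid list the 6 globin genes, some of which are near-identical copies, rose with T3, whereas Alas2, the erythroid enzyme of heme synthesis, fell from 83.5 to 11.4 RPKM (log2 fold change -2.91, adjusted p = 1.6e-05) and was also lower in the mutant, at 39.2 RPKM (log2 fold change -1.10, adjusted p = 0.0042). No gene of any list was at 0 in all libraries, but 2 of 4 neutrophil genes and 1 of 7 lymphocyte genes had a mean under 0.1 RPKM. The part of these shifts in the levels of the OXPHOS genes was not tested.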

How the data were processed

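Liver RNA was enriched for polyadenylated transcripts and sequenced in 12 of the 56 samples of the series. The authors aligned reads to mm9 with STAR and deposited RPKM values per RefSeq transcript, made with HOMER (versions not given in the sources used here). They also deposited the coordinates of 37200 acetylated regions, which hold start and end positions and no signal. Groups were taken from genotype and treatment labels. Every library has runs from a HiSeq and a NovaSeq instrument and 1 column of values. No column was left unused.

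The first of the 31370 transcript rows per gene symbol was used, and 1 row without a gene name, at most 0.000785% of summed RPKM, was left out. Depth was estimated from the spacing of low values and GENCODE M1 transcript lengths. RPKM divides by all aligned reads, so that a fall of very abundant transcripts can raise the values of the rest.

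Differences were tested with limma 3.58.1 in R 4.3.3 (moderated, two-sided, variance trend) on log2(RPKM + 0.1), for genes that reached 0.1 RPKM in 4 or more of the 8 libraries of a comparison, with Benjamini-Hochberg adjustment over all genes tested and a threshold of 0.01. Fold changes are on that scale and understate the change of low genes. Counts of calls were made again above a log2 fold change of 1. Close copies were searched with BLAST 2.17.0 against mm9 (at least 98% identity over at least 100 bases), and figures and summaries were made with Python 3.11.15 and matplotlib 3.10.9.

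The members and the gene lists were chosen with earlier results of these data known. Named with T3 were the 2 highest and 2 lowest log2 fold changes of each complex, all of complex II, the core catalytic subunits (1 of them is not reported here) and the paralog groups, and in the mutant the 3 highest and 3 lowest. Ndufa8, Ndufc1, Ndufv2, Atp5e, Cox6b2 and the members at the ends of the level range were named after their values were seen. Of other lists at most 4 genes by size of change were named, and Alas2 after its values were seen. Alternatives were other pseudocounts, filters, scalings, row choices, thresholds and variance models, a joint fit of all libraries, a block for the replicate number, and each library left out.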

Additional observations from a re-analysis of the deposited data

Results flagged for a closer look

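In 7 of 120 groups of 4 libraries of the named genes, 1 library lay far from the other 3 by Dixon's criterion, which sets the gap to the nearest library against the range of the group and which chance meets in about 1 of 20 groups. Ndufv1 was at 79.0 RPKM in L-NCORdeltaID PTU replicate 4, beside 83.9 to 84.7 RPKM in the other mutant livers. Cox6c was at 123 RPKM in WT PTU replicate 4, beside 112 to 114 RPKM. The same library held the highest Cox6a2 (0.438 RPKM, beside 0 to 0.052 RPKM) and Cox8b (0.653 RPKM, beside 0 to 0.095 RPKM) and summed to 26.5 RPKM over 6 skeletal muscle genes. The other 3 concerned genes with a few reads, Atp5g2 at 0.310 RPKM in WT PTU_T3 replicate 2 (others 0.119 to 0.146 RPKM), and Cox6a2 at 0.143 RPKM in WT PTU_T3 replicate 3 and at 0.040 RPKM in L-NCORdeltaID PTU replicate 2 (others at 0). No cause was tested.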

How the results depend on the processing

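With T3 against WT PTU, the count of 35 members higher became 8 when libraries were scaled by the median of gene ratios or centred on the median gene, and 18 when centred on genes of at least 30 RPKM. Shares of all genes called on the centred scales are not given here for any comparison. The count lower became 1 under the first and the second. The median log2 fold change of 0.31 became 0.08, 0.07 and 0.20 under these 3 scalings, which remove the shift of the typical or the abundant gene by construction. Under the other alternatives without a library left out, the count higher was between 25 and 51 and the median was 0.31. Leaving out 1 library gave 20 to 37 members higher, none lower and medians of 0.27 to 0.34.

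Directions turned under the same 3 scalings. Under gene ratios the median of complex II was -0.18, and Sdhb was at -0.22, Sdhc at -0.14, Uqcrq at -0.14, Uqcrc2 at -0.03, Ndufa4 at -0.17, Atp5h at -0.10 and Atp5g3 at -0.07. Centred on the median gene the values were -0.19, -0.23, -0.15, -0.15, -0.04, -0.18, -0.11 and -0.08 in the same order. Centred on abundant genes, complex II was at -0.06, Sdhb at -0.10, Sdhc at -0.02, Uqcrq at -0.03 and Ndufa4 at -0.05. Sdhb was also at -0.05 without WT PTU_T3 replicate 1 and at -0.03 without WT PTU_T3 replicate 4. None of these passed the test.

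For the mutant, no member was called under any alternative run, and the median was between 0.04 and 0.09. For WT PTU_T3 against the mutant, the count of 15 higher became 28 with all 12 libraries in 1 fit, 34 at an adjusted p under 0.05 (with 1 lower), 5 under gene ratios and 4 centred on the median gene (1 lower in each), and 8 centred on abundant genes. The median of 0.26 became 0.06, 0.05 and 0.14 under the 3 scalings. Leaving out 1 library gave 7 to 11 higher and medians of 0.22 to 0.31. Except where a scaling removes the shift or fewer samples were used, the cause was not tested.

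The replicate numbers are shared between groups, but the correlations of the deviations of same-numbered livers were between -0.08 and 0.10 in the T3 comparison, with 1 of 4 T3-treated livers closest to its own number, and 0.28, -0.21, 0.14 and -0.19 in the mutant, with 2 of 4 closest to their own. In neither were all 4 above 0.1, so that the livers are taken to share only a number. With the replicate block, 25 members were higher with T3, none was called in the mutant, and 5 were higher with T3 against the mutant. Depth limited statements on members of under 1 RPKM, which rest on a few reads per library.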
